A study of Rattus norvegicus with 6 samples.

Results

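Ca9, Ca12, Slc4a2 and Slc4a7 are 4 genes that serve acid and base handling at the cell surface, out of 16849 genes in the deposited count table. The cells were RSC96, a Schwann cell line of the rat. The 4 genes were chosen by name with earlier results of these libraries known, so their differences between groups are given as a description. No p-value is printed for them. Their intervals, calls and counts under a p threshold are description too, and the count of calls among them supports nothing. All 4 were among the 13018 genes with enough counts to be fitted. RNA was sequenced in 6 libraries of wild type cells, 2 per group. PVDF@PDA cells were kept under a hypoxia model, 24 h in medium conditioned by macrophages, with a piezoelectric material. PCL@PDA cells had the same model with a material that is not piezoelectric, although the free-text field of these libraries names PVDF@PDA, and the titles were followed. Control cells are labelled as Control alone, and the labels do not say whether they received conditioned medium, so a difference from Control is one between whole conditions. Each group has a replicate 1 from batch 1 and a replicate 3 from batch 3, as in the titles and batch labels. The library names number the second library of each group 2 instead. The labels name no separate cultures, so any p-value measures only the spread between these libraries, which may be technical.

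Carbonic anhydrases interconvert carbon dioxide and bicarbonate. Ca9 and Ca12 are membrane enzymes whose active site faces the outside of the cell, where the reaction yields protons and bicarbonate. Bicarbonate crosses the membrane through the SLC4 family: Slc4a7, the electroneutral sodium-bicarbonate cotransporter NBCn1, brings it into the cell, and Slc4a2, the anion exchanger AE2, moves it out in exchange for chloride. In human cells CA9 is a classic target of the hypoxia-inducible transcription factor, which binds the core letters ACGTG or GCGTG.

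The stretches around the gene starts are shown because that core lies in them. They run from 100 bases before to 30 bases after the start, read 5′ to 3′ on the strand of the gene, from RefSeq promoters of the assembly GRCr8, and capitals mark a match to ACGTG or GCGTG on either strand. Promoters were matched for 3 of the 4 genes. RefSeq places Ca9 at chr5:62558924-62559053 on the plus strand, Ca12 at chr8:76169715-76169844 on the plus strand and Slc4a2 at chr4:11645373-11645502 on the minus strand.
Ca9: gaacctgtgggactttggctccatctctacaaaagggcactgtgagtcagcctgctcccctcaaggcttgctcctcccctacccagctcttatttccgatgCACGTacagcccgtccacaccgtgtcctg
Ca12: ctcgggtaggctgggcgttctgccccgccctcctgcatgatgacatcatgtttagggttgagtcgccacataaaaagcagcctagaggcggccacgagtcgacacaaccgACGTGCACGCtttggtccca
Slc4a2: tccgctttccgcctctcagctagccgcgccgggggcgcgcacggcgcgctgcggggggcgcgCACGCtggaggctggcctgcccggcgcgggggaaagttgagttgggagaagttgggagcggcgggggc
Over windows of 300 bases, 250 before and 50 after the start, Ca9 held 1 match, CACGT at bases 2 to 6 of the transcript. Ca12 held 4 matches, ACGTG directly followed by CACGC at bases 11 to 20, and the same pair again at bases 35 to 44. Slc4a2 held 1 match, CACGC from 38 to 34 bases before the start, in a window with 75% G and C. The promoter of Slc16a3, the lactate transporter described below, held 0 matches. No match lay within CACGTG, the E-box. Such letters are common: 41.6% of all 33469 promoters of this length held either core, as did 58.6% of the 12114 promoters of fitted genes, and ACGTG alone stood in 19.3% and 24.4%.

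The libraries held 32760123 to 35389307 counted reads, and 3 counts corresponded to 0.0848 to 0.0916 CPM, a gene's count scaled to the total of its library. CPM values here are scaled by TMM factors, and in counts from whole cultures fewer cells of a type and less RNA per cell cannot be told apart. Of 12 Schwann cell markers 6 averaged over 1 CPM, and their summed level was 215 to 222 CPM in PVDF@PDA, 205 to 211 in PCL@PDA and 178 to 189 in Control libraries. Ncam1 made up most of that sum and Pmp22 followed, both higher in the material libraries, whereas Erbb3, the neuregulin receptor, had 10.2 to 11.3 CPM in PVDF@PDA, 11.1 to 12.0 CPM in PCL@PDA and 17.5 to 17.8 CPM in Control. Among the other markers S100b (2 to 28 counts per library), Ngfr (0 to 4) and Cdh19 (0 to 4) were near 0. Of 14 macrophage markers 10 were in the table and summed to 7.91 to 9.02 CPM in the material libraries and 8.24 to 8.28 CPM in Control, with Ptprc, the pan-leukocyte marker, at 0 or 1 count. Of 7 fibroblast markers 6 were in the table and summed to 814 to 835 CPM in PVDF@PDA, 819 to 844 CPM in PCL@PDA and 858 to 864 CPM in Control libraries, with Dcn at 0 or 1 count. That order was set by Col1a2 (602 to 616 CPM in the material libraries, 671 to 674 CPM in Control), while Pdgfra (27.3 to 32.6 CPM against 18.6 to 19.6 CPM in Control), Pdgfrb (5.92 to 7.94 CPM against 3.54 to 4.05 CPM) and Col1a1 (20.1 to 21.1 CPM against 12.3 to 13.3 CPM) had the opposite order. The part of these marker differences in the results below was not tested. PCL@PDA replicate 3 stood apart from its partner: the chi-square of their counts was 10.2 per degree of freedom, against 4.8 within the PVDF@PDA pair and 5.56 within the Control pair. Against PVDF@PDA replicates 1 and 3 it was 4.42 and 5.28 for PCL@PDA replicate 1, as low as within groups. For PCL@PDA replicate 3 it was 12.5 and 12.8.

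Per gene length, as the authors' deposited FPKM, Slc4a7 stood highest in all 6 libraries and Ca12 lowest. Slc4a7 averaged 66.8 ± 3.96 FPKM in PVDF@PDA, 61.0 ± 1.63 in PCL@PDA and 72.6 ± 0.501 in Control (SD, n = 2 each). Ca9 came next in the material libraries, at 35.3 ± 2.95 FPKM in PVDF@PDA and 36.0 ± 3.77 in PCL@PDA, and averaged 21.5 ± 6.12 FPKM in Control. Slc4a2 averaged 24.5 ± 0.86 FPKM in PVDF@PDA, 27.6 ± 1.91 in PCL@PDA and 20.8 ± 0.453 in Control. In Control the levels of Ca9 (17.2 and 25.8 FPKM) lay on either side of those of Slc4a2 (20.5 and 21.1 FPKM), so this neighbouring pair did not differ there beyond its spread, whereas in the 4 material libraries Ca9 was above Slc4a2 by more than the replicate spread. Ca12 averaged 4.06 ± 0.603 FPKM in PVDF@PDA, 3.54 ± 0.504 in PCL@PDA and 3.83 ± 1.21 in Control.

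**Figure D1:**
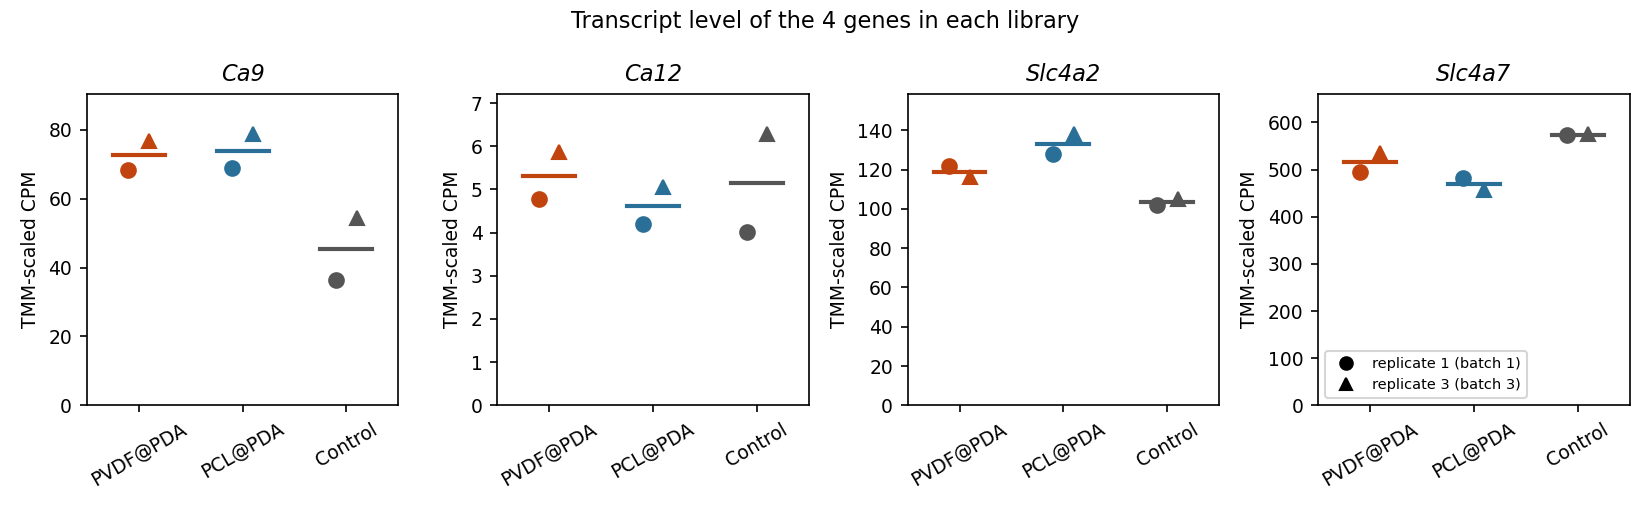
Level of each of the 4 genes in CPM, 1 panel per gene, with a point for each library (circle, replicate 1; triangle, replicate 3) and a bar at the mean of each group. Ca9 is lowest in both Control libraries and spread most there, at 36.4 and 54.4 CPM, Ca12 overlaps between all groups, and Slc4a2 and Slc4a7 take opposite orders over the groups.

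Ca9 (gene ID 313495) had 68.4 and 76.8 CPM in PVDF@PDA, 68.9 and 78.7 CPM in PCL@PDA, and 36.4 and 54.4 CPM in Control, in each case replicate 1 before replicate 3. All 4 material libraries were above both Control libraries, and the groups of material overlapped each other. A lack of overlap with Control, in either direction, was common: 58.5% of all 13018 genes for PVDF@PDA and 56.2% for PCL@PDA. The means were 72.6 ± 5.91 CPM in PVDF@PDA, 73.8 ± 6.88 CPM in PCL@PDA and 45.4 ± 12.7 CPM in Control (SD, n = 2 each). On the log2 scale PVDF@PDA exceeded Control by 0.68 (SE 0.23, 95% interval 0.02 to 1.34), or 59.9%, and PCL@PDA exceeded Control by 0.70 (SE 0.23, interval 0.04 to 1.36), or 62.5%. PVDF@PDA and PCL@PDA differed by -0.02 on the log2 scale, with an interval of -0.67 to 0.62, which leaves room for a difference of more than 1.5 times in either direction. Both comparisons with Control share the same Control libraries.

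Of the 3 pairs of replicates, the Control pair was furthest apart in Ca9. Control replicate 3 had 1.49 times the Ca9 level of Control replicate 1 (counting interval 1.39 to 1.61). Of the 10898 genes kept by a floor on their average level, only 1.76% had a gap as large within Control. The ratio of replicate 3 to replicate 1 was 1.12 (1.06 to 1.19) within PVDF@PDA and 1.14 (1.08 to 1.21) within PCL@PDA. These gaps were reached by 23.1% and 26.7% of the same genes. Ca9 was thus higher in replicate 3 in all 3 groups, as were 14.9% of the 10898 genes. Within batch 1 the log2 difference from Control was 0.91 for PVDF@PDA and 0.92 for PCL@PDA, and within batch 3 it was 0.50 and 0.53, so the 2 materials differed from Control by similar amounts within each batch, and both by more in batch 1. Left without Control replicate 1, the log2 difference was 0.42 for PVDF@PDA and 0.44 for PCL@PDA, and without Control replicate 3 it was 0.99 and 1.02. The fit estimated a quasi-dispersion of 8.49 for Ca9, against a median of 0.958 over all genes, and gave it 0.717 prior degrees of freedom where the median gene had 50.3. The intervals of Ca9 thus rest on 3.7 degrees of freedom in total.

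Ca12 (gene ID 363085), the related surface enzyme, had 4.77 and 5.87 CPM in PVDF@PDA, 4.20 and 5.05 CPM in PCL@PDA and 4.02 and 6.28 CPM in Control. Control held both the lowest and the highest of the 6 values, and all groups overlapped. These levels rest on 134 to 219 counts per library. The log2 difference from Control was 0.04 (SE 0.23, interval -0.41 to 0.50) for PVDF@PDA and -0.16 (SE 0.23, interval -0.62 to 0.30) for PCL@PDA, and PVDF@PDA differed from PCL@PDA by 0.20 (interval -0.26 to 0.66). By batch, PVDF@PDA minus Control was 0.24 in batch 1 and -0.10 in batch 3, and PCL@PDA minus Control was 0.06 in batch 1 and -0.31 in batch 3. As for Ca9, replicate 3 had the higher value in every group, by 1.23 times in PVDF@PDA, 1.20 times in PCL@PDA and 1.56 times in Control (counting interval 1.26 to 1.95), a gap reached by 1.18% of genes within Control. A long noncoding locus overlaps Ca12 in GRCr8 and was not analysed here, and the strand used in counting is not given in the sources used here.

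Slc4a2 (gene ID 24780), the exchanger that exports bicarbonate, had 122 and 116 CPM in PVDF@PDA, 128 and 138 CPM in PCL@PDA, and 102 and 105 CPM in Control. The 3 groups did not overlap: PCL@PDA libraries were highest, PVDF@PDA between, and Control lowest. Taken 2 groups at a time, 38% (between the materials) to 58.5% (PVDF@PDA against Control) of all genes did not overlap. The share with all 3 groups apart was not counted. The means were 119 ± 4.43 CPM in PVDF@PDA, 133 ± 7.67 CPM in PCL@PDA and 103 ± 1.82 CPM in Control (SD, n = 2 each). The log2 difference from Control was 0.20 (SE 0.06, interval 0.08 to 0.33), or 15%, for PVDF@PDA, and 0.36 (SE 0.06, interval 0.24 to 0.49), or 28.7%, for PCL@PDA. PVDF@PDA differed from PCL@PDA by -0.16 (SE 0.06, interval -0.29 to -0.04), made up of -0.06 in batch 1 and -0.26 in batch 3. Slc4a2 lies within 1 kb of Fastk and Cdk5 in GRCr8. Cdk5 differed from Control by 0.12 and 0.18 and Fastk by -0.11 and -0.13, log2, with PVDF@PDA before PCL@PDA, and neither gene was called.

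Slc4a7 (gene ID 117955), the cotransporter that imports bicarbonate, showed the opposite order. It had 494 and 536 CPM in PVDF@PDA, 481 and 456 CPM in PCL@PDA, and 573 and 575 CPM in Control. Control libraries were highest, PVDF@PDA between and PCL@PDA lowest, again with no overlap. The means were 515 ± 29.4 CPM in PVDF@PDA, 468 ± 17.9 CPM in PCL@PDA and 574 ± 1.56 CPM in Control (SD, n = 2 each). The log2 difference from Control was -0.16 (SE 0.05, interval -0.26 to -0.05), a level lower by 10.3%, for PVDF@PDA, and -0.29 (SE 0.05, interval -0.40 to -0.19), lower by 18.4%, for PCL@PDA. PVDF@PDA exceeded PCL@PDA by 0.14 (SE 0.05, interval 0.03 to 0.24), made up of 0.04 in batch 1 and 0.23 in batch 3. For both transporters the difference between the materials was thus larger in batch 3, which holds the PCL@PDA library that stood apart. Libraries of both materials moved, however. From replicate 1 to replicate 3 Slc4a2 changed by -0.08 in PVDF@PDA and 0.12 in PCL@PDA, log2, and Slc4a7 by 0.12 and -0.08. The source of the larger difference in batch 3 was not tested. Groups that do not overlap, in either direction, were common among all 13018 genes: 58.5% for PVDF@PDA against Control, 56.2% for PCL@PDA against Control and 38% for PVDF@PDA against PCL@PDA.

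A gene was called where edgeR's quasi-likelihood test gave an adjusted p (Benjamini-Hochberg, all fitted genes) below 0.05. By this rule 2 of the 4 genes were called against Control for each material, Slc4a2 higher and Slc4a7 lower. The background was 15.7% of genes called for PVDF@PDA and 20.1% for PCL@PDA, and since the genes were chosen on these contrasts nothing is read from the count. Between PVDF@PDA and PCL@PDA 0 of the 4 were called by edgeR and 0 by DESeq2, where 0.0615% of all genes were called by edgeR. An unadjusted p below 0.05 in edgeR was found for 2 of the 4, and for 1105 of all 13018 genes. For PVDF@PDA against Control the count depended on single libraries: it was 0 without PVDF@PDA replicate 1, and 1 (Slc4a7) without PVDF@PDA replicate 3. Without Control replicate 1 or Control replicate 3 it was 1 each time, and that gene was Ca9. It was 1 (Slc4a2) when libraries were scaled by their totals alone. For PCL@PDA against Control, Slc4a2 and Slc4a7 were called under all 13 alternative settings. These are refits of the same libraries and add no support for genes chosen on these contrasts. In a fit that includes the batch Ca9 was called too, which made 3 of 4 against Control for each material. The median prior degrees of freedom of that fit were infinite, so a typical gene got no spread of its own. This limit holds wherever that fit is cited. Ca9 was also called for both materials without a filter on low counts and in a non-robust fit, and by DESeq2 for PCL@PDA, while for PCL@PDA the fits without either Control library called it as well.

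**Figure D2:**
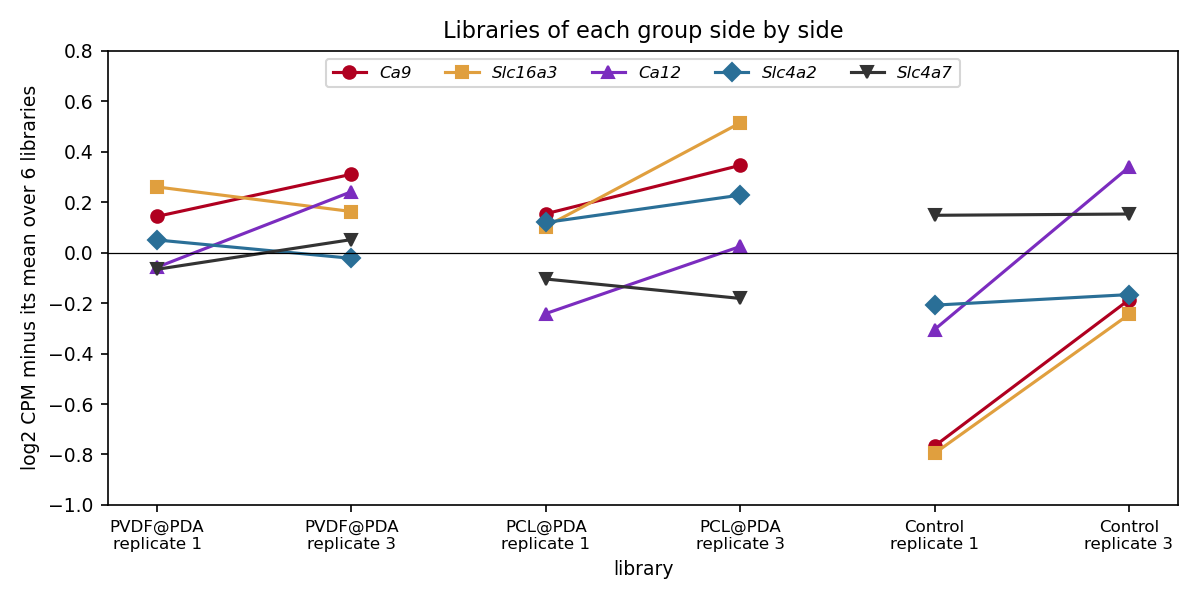
Level of each gene in each library, as log2 CPM minus that gene's mean over the 6 libraries, with the libraries of a group joined by a line. Ca9 and Slc16a3 lie lowest in Control replicate 1 and closer to their means in Control replicate 3, Ca12 is higher in replicate 3 than in replicate 1 of every group, and Slc4a2 and Slc4a7 mirror each other.

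Among genes measured in the same libraries, those most like each of the 4 were ranked by Pearson's r of log2 CPM over the 6 libraries, out of 10365 genes whose mean log2 CPM was 1 or more. The 6 points share 3 groups, 2 batches and a common scaling, so r is a description, and the differences of genes picked in this way repeat the pattern they were picked for and get no test. Ca9 was most like Uspl1, Bles03, Fsd1, Ap2a2 (a subunit of the AP-2 clathrin adaptor) and Rad54l2, at r of 0.994 to 0.996. The log2 differences of these genes from Control were smaller than those of Ca9. They ranged from 0.128 (Rad54l2) to 0.373 (Fsd1) for PVDF@PDA and from 0.125 (Rad54l2) to 0.402 (Fsd1) for PCL@PDA. Among the genes most like Ca12 were Dgkd (a diacylglycerol kinase), Cage1, Errfi1 (an inhibitor of the EGF receptor) and Gpr180, at r of 0.959 to 0.991, and no log2 difference of these exceeded 0.13 in size in any comparison. Slc4a2 was most like Mcm5, a subunit of the replicative helicase, at r = 0.999, followed by Steap1, Gabarap (an autophagy protein), Zc3h10 and Prpf8 (a spliceosome core protein), down to 0.991. The log2 difference of Mcm5 from Control was 0.38 (SE 0.08) for PVDF@PDA and 0.67 (SE 0.08) for PCL@PDA, and the other 4 genes ranged between 0.11 and 0.23 for PVDF@PDA and between 0.19 and 0.42 for PCL@PDA. Slc4a7 was most like Atf7ip at r = 0.999, then Depdc1, Tent2 (a cytoplasmic poly(A) polymerase), Zdhhc21 (a palmitoyltransferase) and Pyroxd1, down to 0.99. The log2 difference of Depdc1 from Control was -0.31 (SE 0.09) for PVDF@PDA and -0.50 (SE 0.09) for PCL@PDA, and the other 4 genes ranged between -0.16 and -0.13 for PVDF@PDA and between -0.34 and -0.23 for PCL@PDA.

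The other genes of pH handling were taken from a list of 76 carbonic anhydrases, bicarbonate and proton transporters, their regulators and proton sensors. This list was also chosen with earlier results of these libraries known, so p-values of its genes are not independent evidence. Of these 64 were in the table and 39 had enough counts to be fitted, 35 of them besides the 4 genes. For PVDF@PDA against Control 2 of the 35 rose (6.79% of all genes did) and 2 fell (8.9% of all genes did), while 31 were not called. For PCL@PDA against Control 3 of the 35 rose (8.77% of all genes) and 2 fell (11.3% of all genes), while 30 were not called. Scaled by library totals alone the shares of higher calls among all calls moved to 57% for PVDF@PDA and 58.1% for PCL@PDA, where TMM scaling gave 43.3% and 43.7%. The median log2 difference of the 35 was 0.02 for PVDF@PDA and 0.02 for PCL@PDA, beside 0.01 and 0.01 over all genes. Between the materials 0 of the 35 were called by edgeR and 0 by DESeq2. By edgeR 0.0538% of all genes were called higher in PVDF@PDA and 0.00768% lower. An unadjusted p below 0.05 in edgeR was found for 2 of the 35, and for 1105 of all 13018 genes.

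Slc16a3, the proton-coupled lactate exporter MCT4, differed most among the listed genes that were called. It had 29.1 and 27.2 CPM in PVDF@PDA, 26.1 and 34.7 CPM in PCL@PDA, and 14.0 and 20.5 CPM in Control. The material libraries were above both Control libraries and overlapped each other, where 58.5% (PVDF@PDA) and 56.2% (PCL@PDA) of all genes did not overlap with Control. Slc16a3 rose against Control by 0.70 (log2, SE 0.15, adjusted p = 0.00391 in edgeR) for PVDF@PDA and by 0.81 (SE 0.15, adjusted p = 0.000904) for PCL@PDA, and it was called against Control under all 13 alternative settings. As with Ca9, Control replicate 1 was the lowest library, and replicate 3 had 1.47 times its level, a gap that 2.09% of genes reached within Control. Within PVDF@PDA, however, Slc16a3 did not follow Ca9: replicate 3 had 0.937 times the level of replicate 1. Slc16a3 overlaps Csnk1d in GRCr8, and without a stated strand reads of the pair may be shared. Csnk1d differed from Control by -0.13 (adjusted p = 0.102 in edgeR) for PVDF@PDA and by -0.09 (adjusted p = 0.261) for PCL@PDA.

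Basigin and embigin escort the monocarboxylate transporters to the membrane. Bsg, the listed gene with the highest level per gene length (289 FPKM over all libraries), had 465 and 494 CPM in PVDF@PDA, 484 and 560 CPM in PCL@PDA and 426 and 459 CPM in Control. It rose against Control for PCL@PDA by 0.24 (log2, SE 0.06, adjusted p = 0.00206 in edgeR), a call lost without PCL@PDA replicate 3 (adjusted p = 0.0724) or Control replicate 1 (0.0852). For PVDF@PDA it differed by 0.12 (adjusted p = 0.174), and in a fit that includes the batch its adjusted p was 0.0439. Emb had 19.6 and 20.2 CPM in PVDF@PDA, 17.2 and 15.4 CPM in PCL@PDA and 17.0 and 13.8 CPM in Control. It rose against Control for PVDF@PDA by 0.37 (log2, SE 0.13, adjusted p = 0.0407 in edgeR), and this call was lost in DESeq2 (adjusted p = 0.0909), and without PVDF@PDA replicate 1 (0.125), PVDF@PDA replicate 3 (0.219) or Control replicate 3 (0.467). For PCL@PDA Emb differed from Control by 0.08 (adjusted p = 0.726), and the materials differed by 0.29 (interval 0.03 to 0.54, adjusted p = 0.53 in edgeR), so a response to PVDF@PDA alone was not shown. Slc16a1, the widely expressed MCT1, averaged 338 CPM in PVDF@PDA, 333 CPM in PCL@PDA and 353 CPM in Control and was not called.

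Among regulators, Chp1, a calcium-binding cofactor of the sodium-proton exchangers, had 167 and 166 CPM in PVDF@PDA, 162 and 166 CPM in PCL@PDA and 187 and 196 CPM in Control. It fell against Control by 0.20 (log2, SE 0.06, adjusted p = 0.00949 in edgeR) for PVDF@PDA and by 0.22 (adjusted p = 0.00321) for PCL@PDA. The PVDF@PDA call was lost without PVDF@PDA replicate 1 (adjusted p = 0.0762), PVDF@PDA replicate 3 (0.108) or Control replicate 3 (0.151), and the PCL@PDA call without Control replicate 3 (0.0796). Ahcyl1, known as IRBIT, a binding partner that activates sodium-bicarbonate cotransporters, had 401 and 394 CPM in PVDF@PDA, 399 and 386 CPM in PCL@PDA and 443 and 434 CPM in Control. It fell by 0.14 (adjusted p = 0.0493 in edgeR) for PVDF@PDA and by 0.16 (adjusted p = 0.0189) for PCL@PDA. The first of these calls was lost under library totals alone (adjusted p = 0.122), RLE scaling (0.0539), a non-robust fit (0.0532) and without any library of PVDF@PDA or Control (0.137 to 0.31). The second was lost under library totals alone (0.0679) and without Control replicate 1 (0.194) or Control replicate 3 (0.07). Slc9a3r1, the scaffold protein NHERF1, had 33.6 and 35.4 CPM in PVDF@PDA, 34.5 and 36.9 CPM in PCL@PDA and 29.6 and 29.8 CPM in Control. It rose for PCL@PDA by 0.27 (SE 0.09, adjusted p = 0.0361 in edgeR), a call lost in DESeq2 (0.0567) and without PCL@PDA replicate 3 (0.19), Control replicate 1 (0.178) or Control replicate 3 (0.142), and differed by 0.22 (adjusted p = 0.113) for PVDF@PDA.

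**Figure D3:**
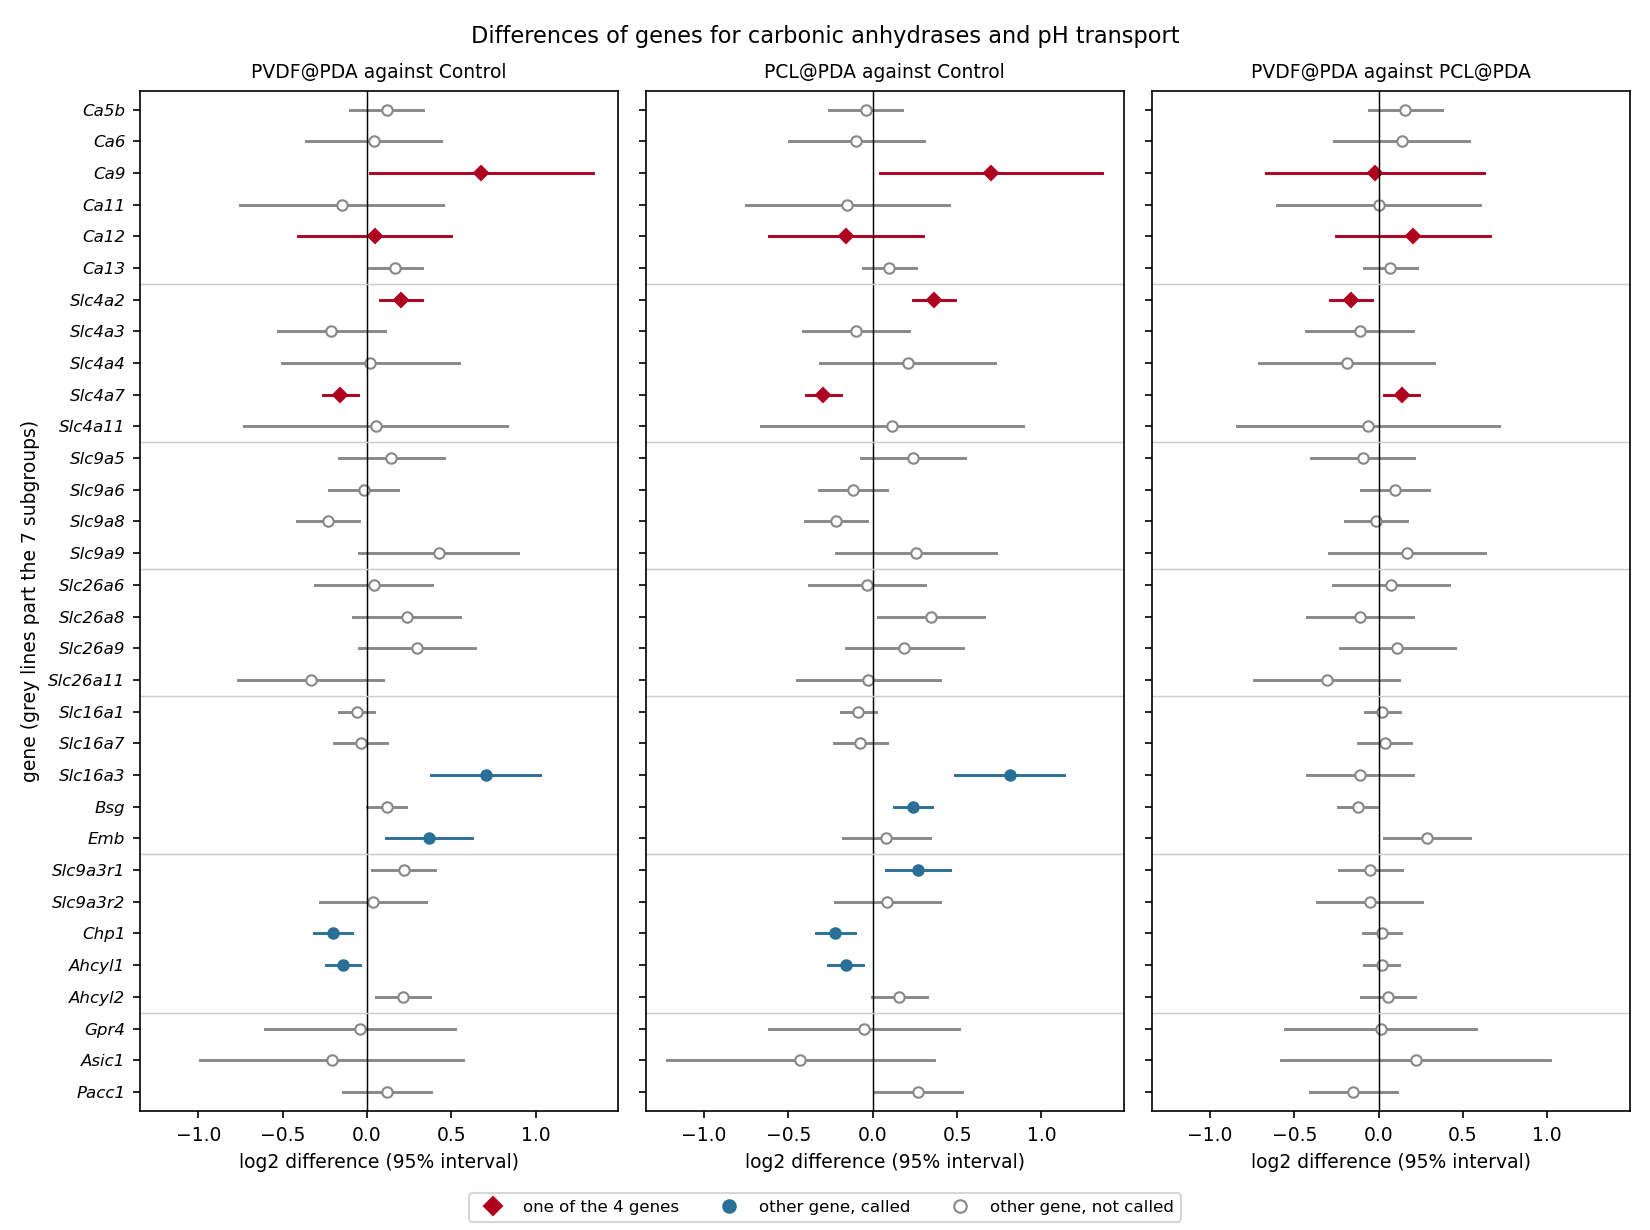
Log2 difference with its 95% interval for 32 of the 33 fitted genes of pH handling with a mean of at least 1 CPM (the other is not reported here), in the order PVDF@PDA against Control, PCL@PDA against Control and PVDF@PDA against PCL@PDA, with diamonds for the 4 genes, filled circles for other genes called and open circles for other genes not called. Slc16a3, at 0.70 and 0.81, and Ca9, at 0.68 and 0.70, lie furthest to the right of 0 against Control, and Ca9 has the wider interval.

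The remaining carbonic anhydrases and transporters gave no calls in the main fit. Besides Ca9 and Ca12, 5 carbonic anhydrases were fitted and 0 were called against Control for either material by edgeR or DESeq2, with 1 at an unadjusted p below 0.05 for PVDF@PDA (Ca13) and 0 for PCL@PDA. Ca13, a cytosolic form, had 61.0 and 55.3 CPM in PVDF@PDA, 56.3 and 54.6 CPM in PCL@PDA and 52.6 and 50.9 CPM in Control, and differed from Control by 0.17 (adjusted p = 0.145 in edgeR) for PVDF@PDA and 0.10 (adjusted p = 0.424) for PCL@PDA. Of the SLC4 family, Slc4a3, Slc4a4 and Slc4a11 were fitted besides the 2 genes described, and 0 of 3 were called by edgeR or DESeq2, with 0 at an unadjusted p below 0.05. All 5 fitted sodium-proton exchangers were uncalled by both tools, with 1 at an unadjusted p below 0.05 against Control for each material, which was Slc9a8 both times. Slc9a8, an exchanger of internal membranes, had 43.0 and 41.2 CPM in PVDF@PDA, 38.5 and 46.4 CPM in PCL@PDA and 45.2 and 53.6 CPM in Control. It differed from Control by -0.23 (adjusted p = 0.0745 in edgeR) for PVDF@PDA and by -0.22 (adjusted p = 0.0837) for PCL@PDA. In a fit that includes the batch both passed (adjusted p = 0.0371 and 0.0388 in edgeR). The PVDF@PDA difference also passed in edgeR without a filter on low counts (0.0471) and with only the libraries compared (0.0194), where that of PCL@PDA did not. The 7 fitted SLC26 anion exchangers, with Slc26a6 the highest at 2.19 FPKM over all libraries, and the 5 fitted proton sensors and channels, with Pacc1, the acid-activated chloride channel, the highest at 10.8 FPKM, held 0 calls by edgeR or DESeq2. At an unadjusted p below 0.05 each of these subgroups had 0 genes for PVDF@PDA and 1 for PCL@PDA against Control. Of all 13018 fitted genes, 3671 for PVDF@PDA and 4036 for PCL@PDA had an unadjusted p below 0.05 against Control in edgeR.

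**Figure D4:**
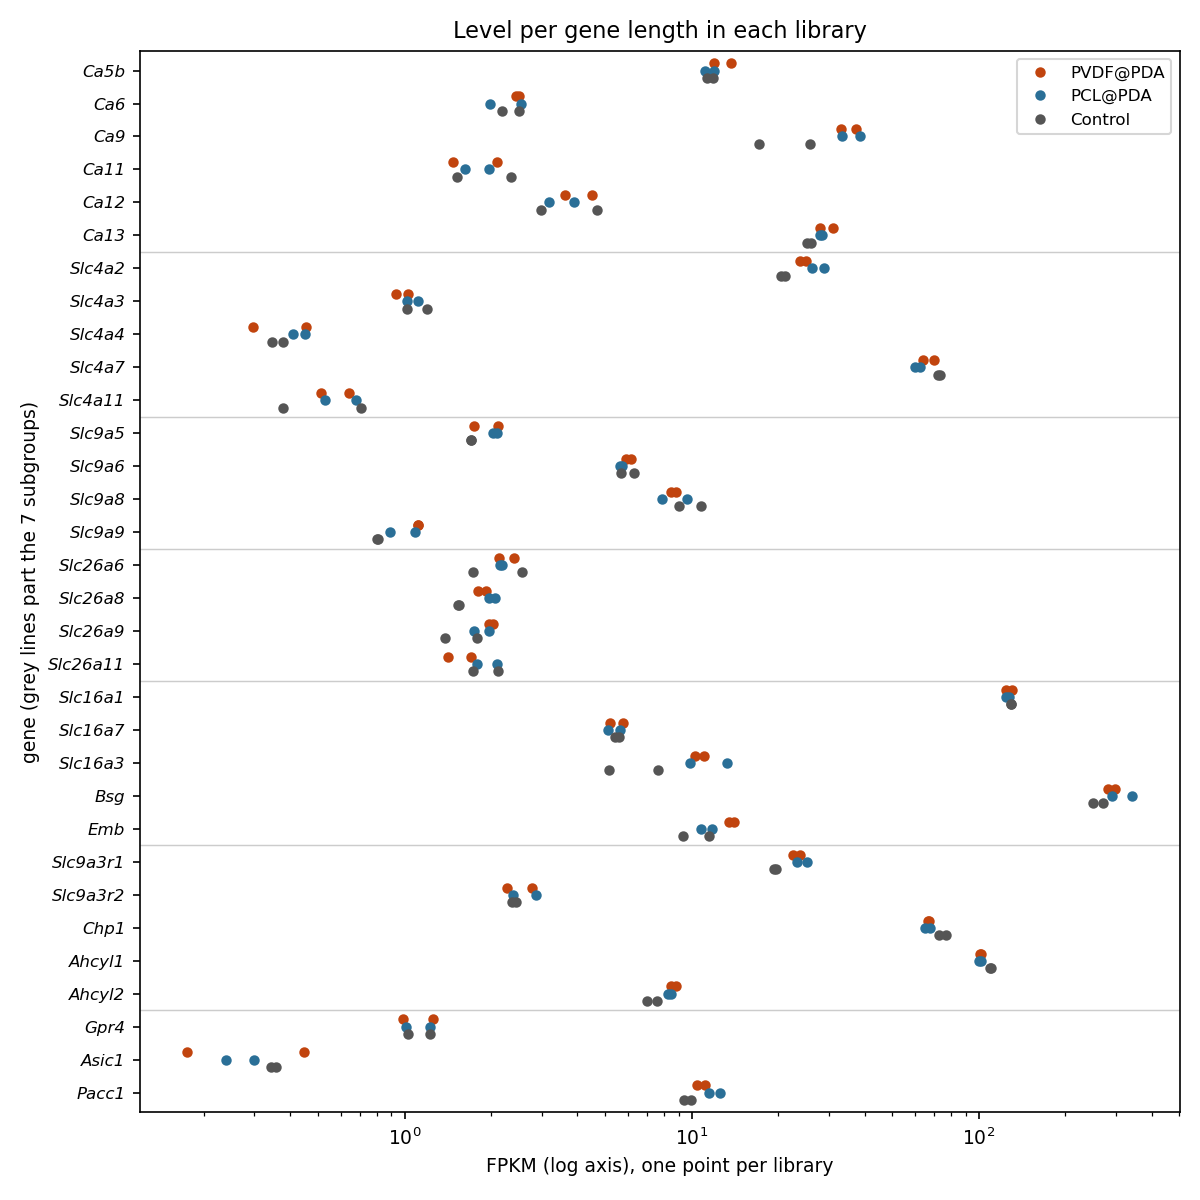
Deposited FPKM of the same 32 genes of pH handling in each library on a log axis, with the groups PVDF@PDA, PCL@PDA and Control in 3 colours and subgroups parted by grey lines. Bsg lies furthest to the right, at a mean of 289 FPKM over all libraries, and the highest genes of their own subgroups include Ahcyl1 at 104, Slc4a7 at 66.8 and Ca9 at 30.9 FPKM.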

How the data were processed

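Members and gene lists were chosen with earlier results of these data known. The authors deposited raw read counts per gene for 6 libraries and FPKM values per library. For 15690 of 15690 genes counted in at least 2 libraries, the ratio of count to FPKM gave a single gene length (tolerance 1e-05, relative). The submitters' processing notes name the assembly mRatBN7.2 and DESeq2 1.4.5. Not given in the sources used here are the aligner, the counter and the strand.

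The count model was edgeR 4.0.16 under R 4.3.3, with TMM scaling, filterByExpr, which kept 13018 genes and removed 3831, and a robust quasi-likelihood fit of 3 group means (3 residual degrees of freedom). The biological coefficient of variation was 6.47%. Genes were called at an adjusted p (2-sided, Benjamini-Hochberg, all fitted genes) below 0.05. Counting intervals, at 95%, and the floor of 3 counts cover counting error only. The script was tested on simulated data.

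Alternatives were library totals, RLE, no filter, DESeq2 1.42.0, a non-robust fit, batch as a term, only the libraries compared, and each library left out. The labels give replicates of the same number a shared batch, so the numbers pair the samples. Deviations from group means correlated across genes within a batch at -0.021 between PVDF@PDA and PCL@PDA, at 0.043 between PVDF@PDA and Control, and at 0.13 between PCL@PDA and Control.

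The text names the 4 genes, every listed gene called in any comparison, the listed gene with the highest mean FPKM of each subgroup, and for each of the 4 the 5 genes with the highest r and a symbol that is no locus identifier. Other genes named were picked with their values in view. Some genes of the rule or the lists are not reported here. Of the list, 5 genes were found under another symbol and 12 were not analysed here. Promoter sequences come from RefSeq (GRCr8).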

Additional observations from a re-analysis of the deposited data

How the results depend on the processing

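Counts of calls, edgeR's unless stated, moved as follows. With library totals alone, PVDF@PDA against Control had 1 of the 4 genes called (2 under TMM) and 1 other listed gene lower (2 under TMM), PCL@PDA against Control had 1 other listed gene lower (2), and 5 genes in all were called between the materials (8). RLE size factors and a non-robust fit each left 1 other listed gene lower for PVDF@PDA. DESeq2 left 1 other listed gene higher for PVDF@PDA and called 5 genes between the materials. With the batch as an added term (the replicate block) 4 other listed genes were higher for PVDF@PDA against Control (2 without the block) and 59 genes were called between the materials, and no call of Slc4a2 or Slc4a7 changed. Fitting only the 4 libraries compared also gave 4 higher. No filter on low counts gave 17 genes between the materials.

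Leaving out 1 library gave 0 to 2 of the 4 genes called, 1 to 4 other listed genes higher, 0 to 3 lower and 1031 to 2869 genes in all (2042 with every library) for PVDF@PDA against Control. For PCL@PDA against Control it gave 2 to 3 of the 4, 1 to 3 higher, 0 to 3 lower and 1346 to 3173 in all (2616). Between the materials it gave 0 to 2 of the 4, 0 higher, 0 to 1 lower and 0 to 827 in all (8). The last maximum came without PCL@PDA replicate 1, when PVDF@PDA stood against PCL@PDA replicate 3 alone: Slc4a2 (-0.22 on the log2 scale), Slc4a7 (0.18) and Bsg (-0.22) were then called, and a lone library is assumed to vary like the other groups. The cause of these shifts was not tested, except that a fit without a library has fewer samples. With 2 libraries per group, differences of Ca12, at 134 to 219 counts per library, were resolved only to about the interval widths given.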

Other observations

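Car2, the cytosolic carbonic anhydrase II, had too few counts to be fitted and was picked after its values were seen. It had 31 counts over the PVDF@PDA libraries (22 in the higher and 9 in the lower), 5 over the PCL@PDA libraries and 3 over the Control libraries. The ratio was 10.5 against Control (counting interval 3.27 to 53.6) and 6.35 against PCL@PDA (2.45 to 20.9). Without a filter on low counts, edgeR gave adjusted p = 0.138 against Control and 0.681 against PCL@PDA.

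Slc4a9, another member of the SLC4 family, was likewise picked after its values were seen. It had 22 counts over the PVDF@PDA libraries (6 in replicate 1 and 16 in replicate 3). The PCL@PDA libraries held 16 (7 and 9) and the Control libraries 4 (4 and 0). The counting intervals leave out this spread between libraries. Its ratio to Control was 5.58 for PVDF@PDA (counting interval 1.9 to 22.3) and 3.96 for PCL@PDA (1.28 to 16.3), with adjusted p = 0.322 and 0.46 in edgeR without a filter.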
